A study of Mus musculus with 6 samples.

Results

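Transcripts of 10 genes of prostaglandin synthesis, reduction and reception were compared between adipocytes and preadipocytes of the 3T3-L1 line. They were found by symbol through their gene identifiers, all 10 were present among the 54752 genes of each table, and all 10 passed the low-count filter of the test. The genes are 2 cyclooxygenases (Ptgs1, Ptgs2), 3 prostaglandin E synthases (Ptges, Ptges2, Ptges3), prostacyclin synthase (Ptgis), a prostaglandin reductase (Ptgr1) and 3 receptors (Ptgfr, Ptger4, Ptgir).

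3T3-L1 is a single clonal line of mouse embryonic fibroblasts that can be driven to store fat in culture. RNA was sequenced from 3 adipocyte and 3 preadipocyte libraries, which the labels describe alike except for title and cell type: tissue embryo, strain C57BL/6J, no treatment, and 1 medium description that contains the unexplained abbreviation DMI. What each group received, and when it was harvested, is therefore not known from the labels, and the source name is Adipocyte also for the preadipocyte samples. The replicates are numbered but nothing states that they were separate cultures, and the spread behind every p-value is that between these libraries, which may be technical.

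Cell type markers followed the labels. All 8 adipocyte markers were higher and all 6 preadipocyte markers were lower in adipocytes, with a log2 fold change of 15.20 for Adipoq, 8.41 for Fabp4, 14.38 for Plin1, 3.90 for Pparg and -4.53 for Dlk1. Dlk1 still averaged 128.6 TPM in adipocytes, against 4256 TPM in preadipocytes. In these bulk samples, fewer cells of a type and less RNA per cell cannot be told apart. Macrophage markers summed to 2.20 to 4.12 TPM in adipocytes and 6.45 to 8.05 TPM in preadipocytes. Of the 8 listed, 3 were abundant enough to test: Csf1r and Cd14 were lower and Cd68 did not pass. Among all tested genes, 37.9% were lower. Cd14 was the most abundant of the list. Adgre1 and Itgam had 0 counts in all 6 libraries, and Ptprc had 1 count in 1 preadipocyte library. The part of macrophage markers in the differences described here was not tested.

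Prostaglandins are short-lived lipid signals. Phospholipases free arachidonic acid from membranes, the cyclooxygenases turn it into prostaglandin H, and terminal synthases convert that intermediate into prostaglandins E, D and F, prostacyclin or thromboxane, which act on G-protein-coupled receptors of the same or neighbouring cells before reductases and dehydrogenases inactivate them. In the fat cell lineage, prostaglandin F and its receptor are known for restraining differentiation, prostacyclin for promoting it, and prostaglandin E for restraining lipolysis in mature fat cells.

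The 280-base windows around the annotated transcription starts of Ptgs1, Ptgs2, Ptges2 and Ptger4 are shown because these genes carry the contrasts described below: the cyclooxygenase pair, the largest increase and the largest decrease. RefSeq sequence on GRCm38.p6 was used, each window running 5′ to 3′ on the gene's strand from 250 bases before the start to 30 bases of transcript. Capitals mark matches, on either strand, to TATAAA, to the core TGACG of the cyclic AMP response element, to the E-box CACGTG, to the C/EBP-type pattern TTNNGNAA and to the GC box GGGCGG.
Ptgs1 (chr2:36230176-36230455, plus strand): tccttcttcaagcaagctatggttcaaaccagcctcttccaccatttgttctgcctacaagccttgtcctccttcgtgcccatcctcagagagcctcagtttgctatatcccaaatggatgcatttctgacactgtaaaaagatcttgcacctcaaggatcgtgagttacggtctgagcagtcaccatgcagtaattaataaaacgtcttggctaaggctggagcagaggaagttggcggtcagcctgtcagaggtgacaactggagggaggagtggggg
Ptgs2 (chr1:150099781-150100060, plus strand): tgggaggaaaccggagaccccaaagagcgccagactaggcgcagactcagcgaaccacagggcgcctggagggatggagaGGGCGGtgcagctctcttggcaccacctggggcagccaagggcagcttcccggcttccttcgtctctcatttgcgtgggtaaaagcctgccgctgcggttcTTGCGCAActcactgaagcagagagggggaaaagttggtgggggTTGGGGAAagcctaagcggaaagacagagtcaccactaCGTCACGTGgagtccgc
Ptges2 (chr2:32395640-32395919, plus strand): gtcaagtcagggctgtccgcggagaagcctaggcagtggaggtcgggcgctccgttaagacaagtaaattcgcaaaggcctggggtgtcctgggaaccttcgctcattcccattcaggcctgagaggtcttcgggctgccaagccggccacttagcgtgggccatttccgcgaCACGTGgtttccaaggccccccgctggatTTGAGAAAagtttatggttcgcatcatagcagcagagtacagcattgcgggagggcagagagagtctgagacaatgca
Ptger4 (chr15:5244158-5244437, minus strand): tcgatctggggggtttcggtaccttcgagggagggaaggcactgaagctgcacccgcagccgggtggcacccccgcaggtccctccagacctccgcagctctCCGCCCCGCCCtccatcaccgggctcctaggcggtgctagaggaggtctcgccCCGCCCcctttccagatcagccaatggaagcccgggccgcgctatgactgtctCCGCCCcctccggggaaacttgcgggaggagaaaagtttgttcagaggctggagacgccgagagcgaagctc

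The Ptgs2 window held C/EBP-type matches starting at -69 and -25, a GC box at -170, and a TGACG core at position 14 that overlaps an E-box at position 17, counted from the start as 1. The Ptges2 window held an E-box at -77 and a C/EBP-type match at -48, and the Ptger4 window 4 GC boxes at -148, -143, -95 and -42, of which the first pair overlap by a base. The Ptgs1 window held none of these patterns. Over all 32817 RefSeq windows of this length, TTNNGNAA occurred in 39.2%, GGGCGG in 34.7%, TGACG in 19.9%, TATAAA in 13.1% and CACGTG in 6.79%, so a match describes the window only. Windows were found for 9 of the 10 genes. None of the 9 held TATAAA, the PPAR-type direct repeat of AGGTCA spaced by 1 base (0.037% of all windows), or the AP-1 pattern TGANTCA (7.47%).

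Adipocytes had lower transcript levels of 7 of the 10 genes and higher levels of 2 (edgeR, quasi-likelihood F-test, Benjamini-Hochberg adjusted p under 0.05), and Ptges3 did not pass. Most of the transcriptome moved in the same comparison: 73.5% of 14726 tested genes were called, 37.9% lower and 35.7% higher. The median log2 fold change (adipocyte over preadipocyte) was -0.87 over the 10 genes and -0.06 over all tested genes. With TMM scaling, at least a 2-fold decrease was called for 4 of the 10 (Ptgs1, Ptgfr, Ptger4 and Ptgir), against 21.8% of tested genes. An increase of that size was called for Ptges2 alone, against 19.3%. The count of decreases depends on scaling. On log2(TPM + 0.1), Ptgs2 (-1.16), Ptgis (-1.18) and Ptgr1 (-1.38) were also at least 2-fold lower. Total counts gave -1.18 for Ptgs2 and -1.22 for Ptgr1. On log2(TPM + 1), which compresses low levels, Ptgs2 (-0.53) and Ptgir (-0.70) fell short of 2-fold. The matching shares of all tested genes were not computed for these scalings. The adipocyte and preadipocyte values, in CPM (counts scaled to TMM-adjusted library size), did not overlap for 9 of the 10, against 76.5% of tested genes.

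**Figure D1:**
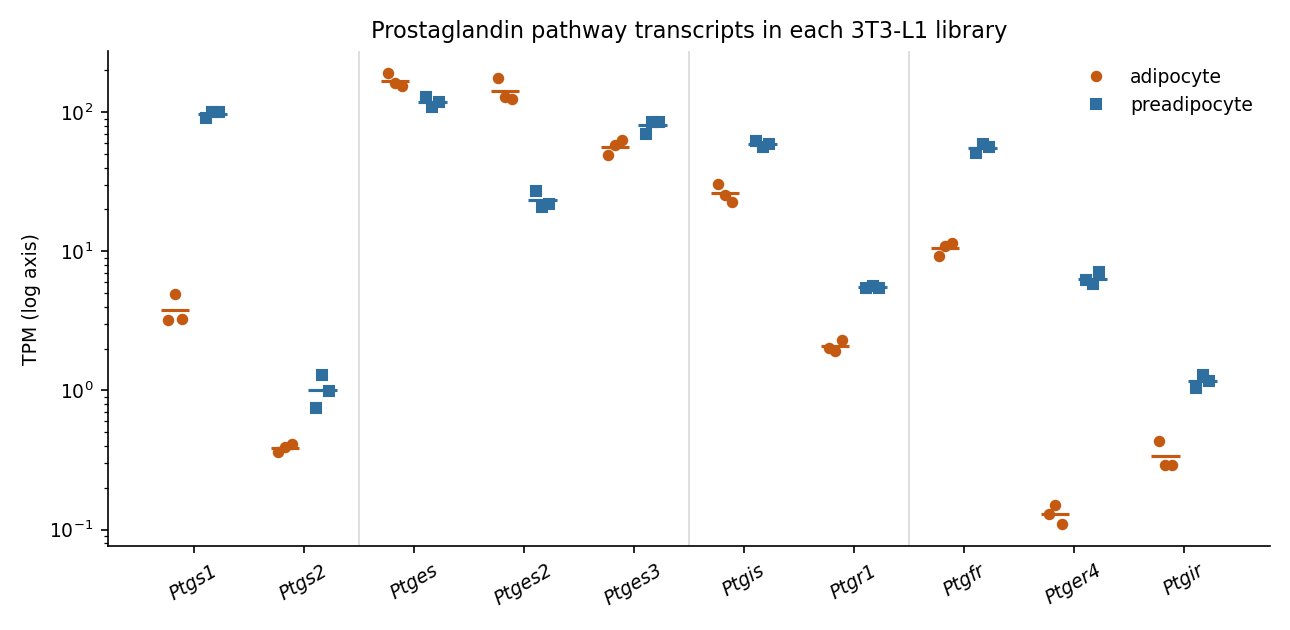
Transcript level of each of the 10 genes in TPM (a level per transcript length, log axis) in each of 3 adipocyte and 3 preadipocyte libraries; points are libraries and bars are means. Ptges and Ptges2 lie higher in adipocytes, and Ptgs1, which is the second most abundant of the 10 in preadipocytes at 97.4 TPM, lies at 3.79 TPM in adipocytes.

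**Figure D2:**
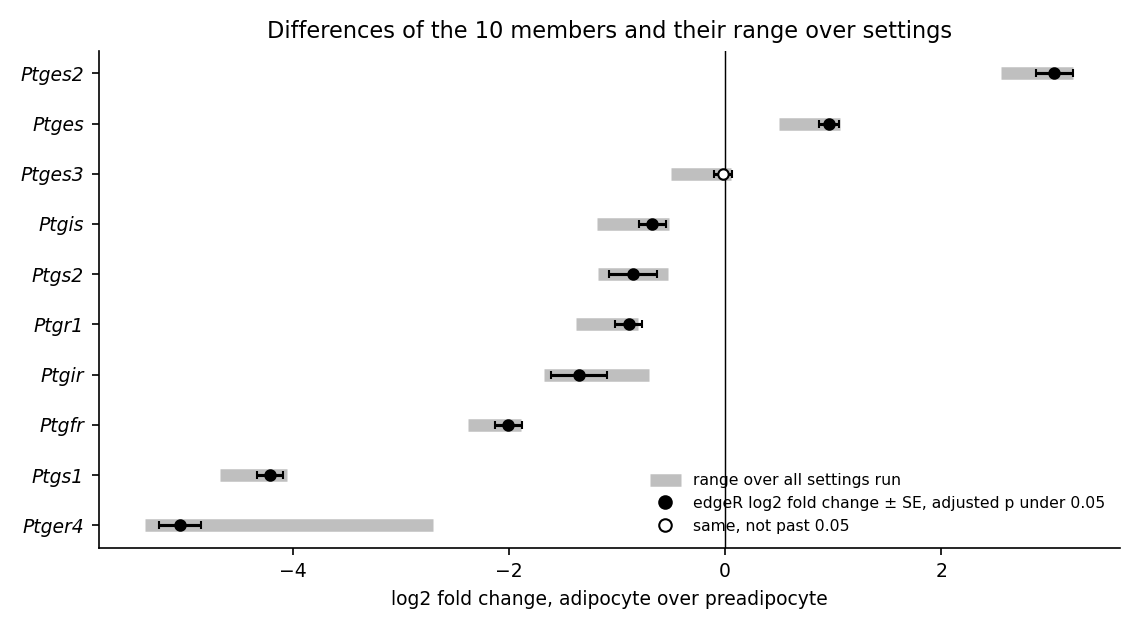
Fitted log2 fold change of each gene, adipocyte over preadipocyte, with its standard error (black points; open where the adjusted p is above 0.05) and the range over all settings run (grey bars). Ptger4 at -5.04 and Ptges2 at 3.05 are the extremes, and the grey bar crosses 0 for Ptges3 only.

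Both cyclooxygenase transcripts fell, Ptgs1 by far the more. Ptgs1 encodes the constitutive enzyme COX-1 (2:36230426-36252272, plus strand, GRCm38; ENSMUSG00000047250.13). Ptgs1 had 3.19, 4.90 and 3.28 TPM in adipocyte libraries 1 to 3, against 91.5, 99.5 and 101 TPM in preadipocyte libraries 1 to 3. Every adipocyte library lay far below every preadipocyte library. The log2 fold change was -4.21 (SE 0.12; edgeR adjusted p = 6.98e-09), an 18.5-fold decrease, and only 2.35% of tested genes had a lower one. The values rest on 133 to 167 estimated counts per adipocyte library and 3052 to 3491 per preadipocyte library. An antisense gene that overlaps 148 exon bases of Ptgs1, Gm43621, had 0 counts in adipocytes and 18.1 to 30.2 counts in preadipocytes, and adding them gave a log2 fold change of -4.22.

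Ptgs2, the inducible COX-2 (1:150100031-150108227, plus strand; ENSMUSG00000032487.8), was scarce in both states. It had 0.36, 0.39 and 0.41 TPM in adipocytes, against 0.75, 1.29 and 0.99 TPM in preadipocytes. The groups did not overlap, although the preadipocyte libraries spread widely. Ptgs2 had a log2 fold change of -0.85 (SE 0.22; edgeR adjusted p = 0.00734), a 1.80-fold decrease that rests on 28 to 31 counts per adipocyte library and 47 to 75 per preadipocyte library.

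Within a library the 2 genes can be set side by side, since TPM is per length. Their summed level was 4.18 ± 0.967 TPM in adipocytes and 98.4 ± 5.36 TPM in preadipocytes (SD, n = 3 each). Ptgs2 made up 10.1%, 7.37% and 11.1% of it in adipocytes and 0.813%, 1.28% and 0.970% in preadipocytes. Its share was thus higher in every adipocyte library, by 8.52 percentage points on average, while its own level was lower. With 3 libraries against 3, an exact two-sided permutation test cannot give a p below 0.1, and the difference reached that value, as did each of the 9 share, ratio and summed-level measures given here (Benjamini-Hochberg adjusted p = 0.1 over the 9).

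Genes that follow the cyclooxygenases most closely across the 6 libraries were searched among 9883 tested genes that reached 10 CPM in the group with more, by Euclidean distance between mean-centred log2(CPM + 1) values. Nearest to Ptgs1 were Pdgfra, the alpha receptor of platelet-derived growth factor and a marker of fat cell progenitors, at a distance of 0.12 and a log2 fold change of -4.01, and Zfp521, a zinc finger gene, at a distance of 0.19 and a log2 fold change of -4.34. Nearest to Ptgs2 were Rab23 and Alg6, both at a distance of 0.20, with log2 fold changes of -0.51 and -0.55. The pseudocount compresses Ptgs2, which had 1.30 CPM in adipocytes and 2.35 CPM in preadipocytes.

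**Figure D3:**
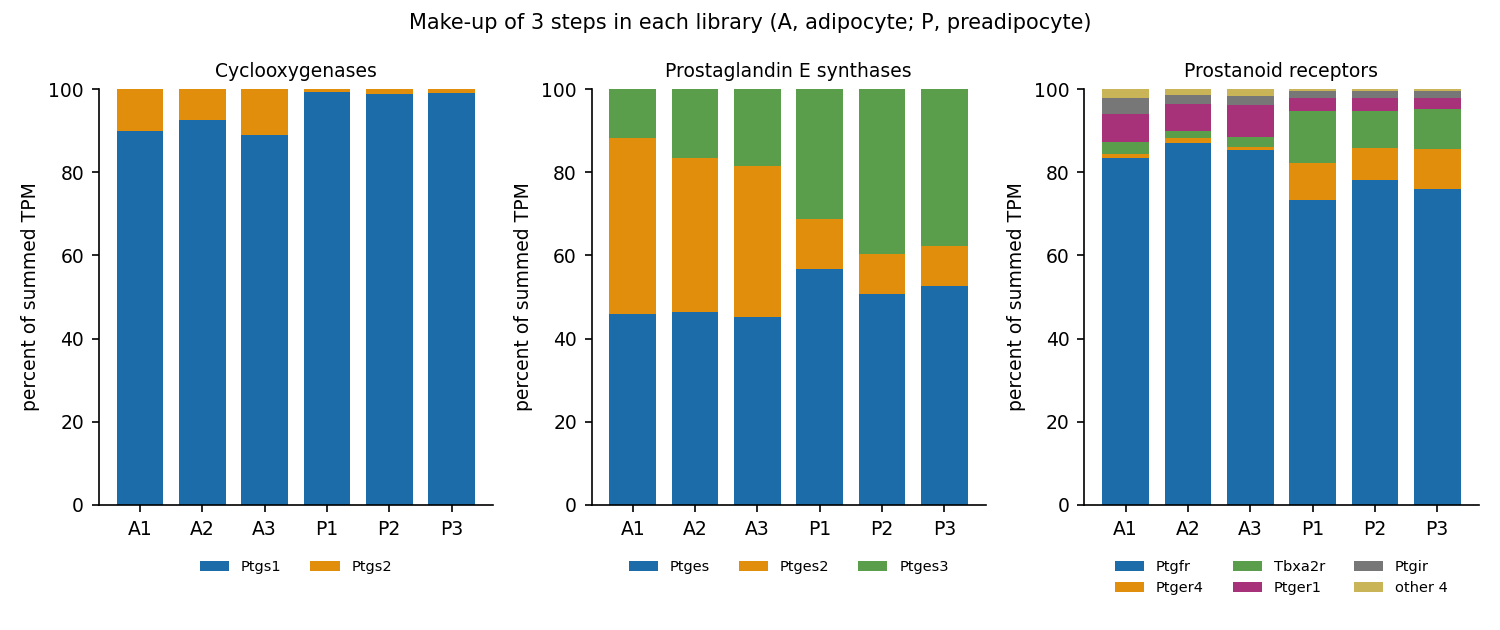
Percent of the summed TPM taken by each cyclooxygenase, each prostaglandin E synthase and each prostanoid receptor in the libraries A1 to A3 (adipocyte) and P1 to P3 (preadipocyte). Ptgs2 takes 7.37% to 11.1% of the cyclooxygenase level in adipocytes and 0.813% to 1.28% in preadipocytes, Ptges2 expands among the synthases, and Ptgfr fills most of the receptor bar in all 6 libraries.

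Transcripts of terminal prostaglandin E synthesis summed to more in adipocytes, through Ptges2 and Ptges. Ptges2 encodes the membrane-associated synthase 2 (2:32395896-32405772, plus strand; ENSMUSG00000026820.5). It had 175.5, 127.9 and 124.0 TPM in adipocytes, against 27.0, 20.9 and 21.98 TPM in preadipocytes. All adipocyte libraries lay above all preadipocyte libraries, with library 1 the highest of each group. For Ptges2 the log2 fold change was 3.05 (SE 0.17; edgeR adjusted p = 4.73e-07), an 8.27-fold increase, and 5.0% of tested genes had a higher one.

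Ptges, the microsomal synthase 1 that is classically induced together with COX-2 (2:30889471-30929863, minus strand; ENSMUSG00000050737.13), was the most abundant of the 10 in both states. It had 190.2, 160.7 and 154.1 TPM in adipocytes, against 127.4, 109.4 and 118.9 TPM in preadipocytes. The groups did not overlap. Ptges had a log2 fold change of 0.96 (SE 0.092; edgeR adjusted p = 1.39e-05), a 1.95-fold increase with TMM scaling. The size depends on scaling, at 0.64 on total counts and 0.50 on log2(TPM + 1). These scalings shifted the median of all tested genes by -0.33 and -0.48.

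Ptges3 encodes p23, a co-chaperone of Hsp90 that also has cytosolic prostaglandin E synthase activity (10:128058954-128077272, plus strand; ENSMUSG00000071072.12). It had 49.1, 57.8 and 62.9 TPM in adipocytes, against 70.1, 85.3 and 85.2 TPM in preadipocytes. The TPM values did not overlap, but the TMM-scaled values did, at 77.0 ± 5.98 CPM in adipocytes and 78.1 ± 5.31 CPM in preadipocytes (SD, n = 3 each). With TMM scaling the log2 fold change was -0.02 (SE 0.087; edgeR adjusted p = 0.853). Without TMM scaling, on total counts, Ptges3 was lower by a log2 fold change of -0.35 (edgeR adjusted p = 0.00841), and on log2(TPM + 1) by -0.50 (limma adjusted p = 0.00427). These scalings shifted the median of all tested genes by -0.33 and -0.48, so relative to that median Ptges3 moved by little under any of them. Of the 31-base words of its transcripts, 20.3% also occur in the pseudogene Ptges3-ps, which held 187.8 to 293.9 counts in adipocytes and 211.3 to 304.7 counts in preadipocytes, and adding those counts left the log2 fold change at -0.02.

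Together the 3 synthase genes summed to 367.4 ± 41.2 TPM in adipocytes and 222.1 ± 5.66 TPM in preadipocytes (SD, n = 3 each). Ptges2 took 38.5% ± 3.28 of that sum in adipocytes and 10.5% ± 1.34 in preadipocytes. Ptges took 45.8% ± 0.606 in adipocytes and 53.4% ± 3.08 in preadipocytes, a smaller share of a larger sum. Ptges3 took 15.7% ± 3.42 in adipocytes and 36.2% ± 4.38 in preadipocytes. No share overlapped between the groups.

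Hsp90 genes and co-chaperones, listed here beside p23, were mixed: of 13 tested, 5 were higher, 4 were lower and 4 did not pass. Among all tested genes, 35.7% were higher and 37.9% lower. With the replicate block, 5 of the Hsp90 list were higher and 6 lower. Unc45a, a myosin chaperone, was the one with at least a 2-fold change on TMM-scaled counts, at 46.7 ± 1.34 TPM in adipocytes and 26.4 ± 1.66 TPM in preadipocytes (SD, n = 3 each), a log2 fold change of 1.48 (SE 0.095; edgeR adjusted p = 1e-06). On log2(TPM + 1) the change of Unc45a was 0.80. The abundant Hsp90ab1 had a log2 fold change of -0.33 and the endoplasmic reticulum form Hsp90b1 one of -0.96, the second at 196.0 ± 28.2 TPM in adipocytes and 547.7 ± 28.0 TPM in preadipocytes (SD, n = 3 each). The split depends on scaling, with 2 higher and 8 lower on total counts and 1 higher and 9 lower on TPM, and without adipocyte library 2 the lower count was 2. The same scalings moved the calls over all genes to 3914 higher and 7481 lower on total counts and to 3266 higher and 8328 lower on log2(TPM + 1), against 5252 higher and 5575 lower with TMM.

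Prostacyclin synthase, Ptgis (2:167191805-167240604, minus strand; ENSMUSG00000017969.13), had 30.6, 25.2 and 22.7 TPM in adipocytes, against 62.5, 56.3 and 58.8 TPM in preadipocytes. The groups did not overlap, and adipocyte library 1 was the highest of its group. The log2 fold change was -0.67 (SE 0.13; edgeR adjusted p = 0.00116), a 1.60-fold decrease. The balance of Ptgis to Ptges, as a log2 ratio of TPM values, was -2.69 ± 0.064 in adipocytes and -1.0 ± 0.037 in preadipocytes (SD, n = 3 each), a difference of -1.69. Every adipocyte library thus carried relatively less prostacyclin synthase transcript per prostaglandin E synthase 1 transcript than any preadipocyte library. An antisense gene over 156 bases of Ptgis, 1110018N20Rik, had 0 counts in all 6 libraries.

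Ptgr1 encodes a reductase that inactivates 15-keto prostaglandins and leukotriene B (4:58965439-58987119, minus strand; ENSMUSG00000028378.6). It had 2.02, 1.91 and 2.29 TPM in adipocytes, against 5.48, 5.67 and 5.44 TPM in preadipocytes. The replicates were close within each group and the groups did not overlap. Ptgr1 had a log2 fold change of -0.89 (SE 0.13; edgeR adjusted p = 0.000223), a 1.86-fold decrease.

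All 3 receptors were lower in adipocytes, and Ptger4 had the largest decrease of the 10 genes. Ptger4 encodes EP4, a prostaglandin E receptor that raises cyclic AMP (15:5206661-5244187, minus strand; ENSMUSG00000039942.15). It had 0.13, 0.15 and 0.11 TPM in adipocytes, against 6.21, 5.84 and 7.06 TPM in preadipocytes. The groups did not overlap, and Ptger4 was barely detected in every adipocyte library, with 8, 8 and 6 counts, against 283, 247 and 325 counts in preadipocytes. The log2 fold change was -5.04 (SE 0.19; edgeR adjusted p = 3.88e-08), a 32.9-fold decrease, and 1.05% of tested genes had a lower one. On log2(TPM + 1), where the pseudocount exceeds the adipocyte level, the change was -2.70. The antisense genes Gm15937 and Ttc33 overlap 1097 exon bases of Ptger4. Gm15937 had 0 to 1 counts in adipocytes and 0 to 3.67 in preadipocytes, and adding it gave a log2 fold change of -4.99. Ttc33 had 465 to 584 counts in adipocytes and 529 to 575 in preadipocytes, and its counts were not added. Reads of these genes and of Ptger4 cannot be told apart where they overlap, since strand is not stated.

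Ptgfr, the prostaglandin F receptor FP (3:151796502-151837630, minus strand; ENSMUSG00000028036.6), was the most abundant prostanoid receptor transcript in both states. It had 9.33, 10.8 and 11.5 TPM in adipocytes, against 51.0, 59.0 and 55.9 TPM in preadipocytes. The groups were far apart relative to their spread. The log2 fold change was -2.0 (SE 0.13; edgeR adjusted p = 8.73e-07), a 4.01-fold decrease. Gm43618, which lies antisense over 329 exon bases of Ptgfr, had 32.6 to 53.1 counts in adipocytes and 150.8 to 176.9 counts in preadipocytes. Strand is not stated, so its reads and those of Ptgfr cannot be told apart there, and adding them gave a log2 fold change of -1.98.

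Ptgir, the prostacyclin receptor IP (7:16906490-16910905, plus strand; ENSMUSG00000043017.9), had 0.43, 0.29 and 0.29 TPM in adipocytes, against 1.05, 1.30 and 1.17 TPM in preadipocytes. The groups did not overlap, on 25, 15 and 13 counts in adipocytes and 48, 55 and 54 counts in preadipocytes. Ptgir had a log2 fold change of -1.35 (SE 0.26; edgeR adjusted p = 0.00123), a 2.55-fold decrease with the widest error of the 10 genes. Transcripts of prostacyclin synthase and of its receptor were therefore both lower in adipocytes.

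Of the 6 remaining prostanoid receptors, 3 could be tested: Tbxa2r and Ptger1 were lower and Ptger3 did not pass, in a comparison where 37.9% of tested genes were lower. Tbxa2r, the thromboxane receptor, had 0.30, 0.21 and 0.32 TPM in adipocytes, against 8.70, 6.65 and 7.08 TPM in preadipocytes, a log2 fold change of -4.32 (SE 0.24; edgeR adjusted p = 3.61e-07). Ptgfrn, a membrane protein named as a negative regulator of the prostaglandin F receptor and not itself a receptor, was also lower and had 5.89 ± 0.303 TPM in adipocytes and 24.2 ± 1.52 TPM in preadipocytes (SD, n = 3 each), a log2 fold change of -1.51 (SE 0.074; edgeR adjusted p = 1.79e-07). Ptger1, the prostaglandin E receptor EP1, had 0.880 ± 0.157 TPM in adipocytes and 2.11 ± 0.211 TPM in preadipocytes (SD, n = 3 each), a log2 fold change of -0.75 (SE 0.16; edgeR adjusted p = 0.00285). Ptger3, the receptor EP3 that lowers cyclic AMP in fat cells, was scarce in both states, with 5 to 10 counts per adipocyte library and 10 to 12 per preadipocyte library, and its log2 fold change of -0.35 did not pass (SE 0.34; edgeR adjusted p = 0.408).

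The last 3 receptors rested on a handful of reads or on none. Ptger2 had 5 counts in adipocytes and 2 in preadipocytes in all, a ratio of 2.90 with a 95% counting interval of 0.802 to 23.9. Ptgdr2 had 2 counts in each group, and Ptgdr had 0 counts in all 6 libraries, which allows up to 0.0443 CPM over the adipocyte libraries and 0.0383 CPM over the preadipocyte libraries. No fold is given for Ptgdr and Ptgdr2.

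Summed over the 9 prostanoid receptor genes, the level was 12.4 ± 1.17 TPM in adipocytes and 72.8 ± 2.98 TPM in preadipocytes (SD, n = 3 each). Ptgfr took 83.3%, 86.9% and 85.2% of it in adipocytes and 73.4%, 78.2% and 76.0% in preadipocytes. Its share was higher in every adipocyte library although its own level was lower. The share of Ptger4 was 0.813% to 1.2% in adipocytes and 7.75% to 9.61% in preadipocytes, and that of Tbxa2r was 1.69% to 2.68% in adipocytes and 8.82% to 12.5% in preadipocytes. Ptger1 took 6.5% to 7.83% in adipocytes and 2.57% to 3.08% in preadipocytes, a larger share of a smaller sum.

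Upstream of the cyclooxygenases, the phospholipases were redistributed. Of 12 listed genes, 9 were tested, of which 5 were higher, 3 were lower and Pla2g4b did not pass. Over all tested genes, 35.7% were higher and 37.9% lower. On log2(TPM + 1) the split of the phospholipases was 4 higher and 4 lower. Pla2g4a, the cytosolic phospholipase that classically supplies arachidonic acid to the cyclooxygenases, had 5.90, 7.12 and 6.88 TPM in adipocytes, against 20.3, 22.4 and 22.4 TPM in preadipocytes, a log2 fold change of -1.19 (SE 0.089; edgeR adjusted p = 2.8e-06). Pla2g16, the phospholipase known as the main one of fat tissue, had 594.3, 515.6 and 486.8 TPM in adipocytes, against 27.5, 22.5 and 26.7 TPM in preadipocytes, a log2 fold change of 4.93 (SE 0.13; edgeR adjusted p = 5.52e-09). In both cases the groups were separated by many times their spread.

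The other phospholipases ranged as widely. The calcium-independent Pla2g6 had a log2 fold change of 2.40, at 51.1 ± 2.90 TPM in adipocytes and 14.7 ± 0.971 TPM in preadipocytes, and the secreted Pla2g12a one of 2.78, at 76.7 ± 8.35 TPM in adipocytes and 16.1 ± 2.61 TPM in preadipocytes (SD, n = 3 each). The secreted Pla2g2e had 205 counts in adipocytes and 2 in preadipocytes, a ratio of 118.8 with a 95% counting interval of 32.9 to 981.0. Pla2g7, which hydrolyses platelet-activating factor, had 0.583 ± 0.130 TPM in adipocytes and 44.2 ± 0.425 TPM in preadipocytes (SD, n = 3 each), a log2 fold change of -5.64 (SE 0.15; edgeR adjusted p = 6.67e-09).

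Other terminal synthases and related reductases, as listed here, were mostly higher. Of 11 listed genes, 7 were tested, with 5 higher, Akr1c14 lower and Gstm2 not past the threshold. The shares over all tested genes were 35.7% higher and 37.9% lower. On total counts the split of the list was 4 higher and 2 lower. Hpgds, a prostaglandin D synthase known from mast cells and other haematopoietic cells, had 76, 103 and 104 counts in adipocytes, against 1, 6 and 1 counts in preadipocytes, a log2 fold change of 5.29 (SE 0.44; edgeR adjusted p = 5.46e-06). The size rests on few preadipocyte counts, and without preadipocyte library 2 it was 6.61. Mast cell markers summed to 0.760 to 1.34 TPM in adipocytes and 0 to 0.0800 TPM in preadipocytes, with Cma1 the most abundant, Fcer1a and Mcpt4 at 0 counts in all 6 libraries and none of the 5 abundant enough to test, and their part in the Hpgds difference was not tested. Among genes of prostaglandin F synthesis, the prostamide synthase Fam213b had 32.4 ± 6.70 TPM in adipocytes and 10.99 ± 0.689 TPM in preadipocytes (SD, n = 3 each), a log2 fold change of 2.10. The aldose reductase Akr1b3 had 149.0 ± 19.9 TPM in adipocytes and 97.5 ± 8.61 TPM in preadipocytes, a log2 fold change of 1.10. Cbr1, a carbonyl reductase that can act on prostaglandin E, had 156.1 ± 17.9 TPM in adipocytes and 51.1 ± 3.85 TPM in preadipocytes, a log2 fold change of 2.12. Akr1c14, a hydroxysteroid dehydrogenase, had 1.54 ± 0.337 TPM in adipocytes and 56.9 ± 4.08 TPM in preadipocytes (SD, n = 3 each), a log2 fold change of -4.87 (SE 0.13; edgeR adjusted p = 7.05e-09).

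Clearance and transport genes were also mostly higher, opposite to Ptgr1. Of 7 listed, 5 were tested, with 4 higher and 1 lower, where 35.7% of all tested genes were higher and 37.9% lower. Ptgr2, the reductase that acts on 15-keto prostaglandin E, had 120.8, 134.5 and 145.1 TPM in adipocytes, against 31.5, 39.5 and 40.4 TPM in preadipocytes, a log2 fold change of 2.35 (SE 0.11; edgeR adjusted p = 1.37e-07). The groups did not overlap, and Ptgr2 exceeded Ptgr1 in every library. Zadh2, a further reductase of the same kind, had 58.8 ± 0.888 TPM in adipocytes and 27.2 ± 1.37 TPM in preadipocytes (SD, n = 3 each), a log2 fold change of 1.63. Abcc4, a transporter that exports prostaglandins, had 7.80 ± 0.624 TPM in adipocytes and 3.47 ± 0.451 TPM in preadipocytes, a log2 fold change of 1.66. Cbr3, a carbonyl reductase, had a log2 fold change of 1.80. Slco2a1, the prostaglandin importer, was the lower one at -1.38, on 4 to 7 counts per adipocyte library and 15 to 18 per preadipocyte library (SE 0.33; edgeR adjusted p = 0.0047). Hpgd, the dehydrogenase that begins inactivation, had 2 counts in each group.

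**Figure D4:**
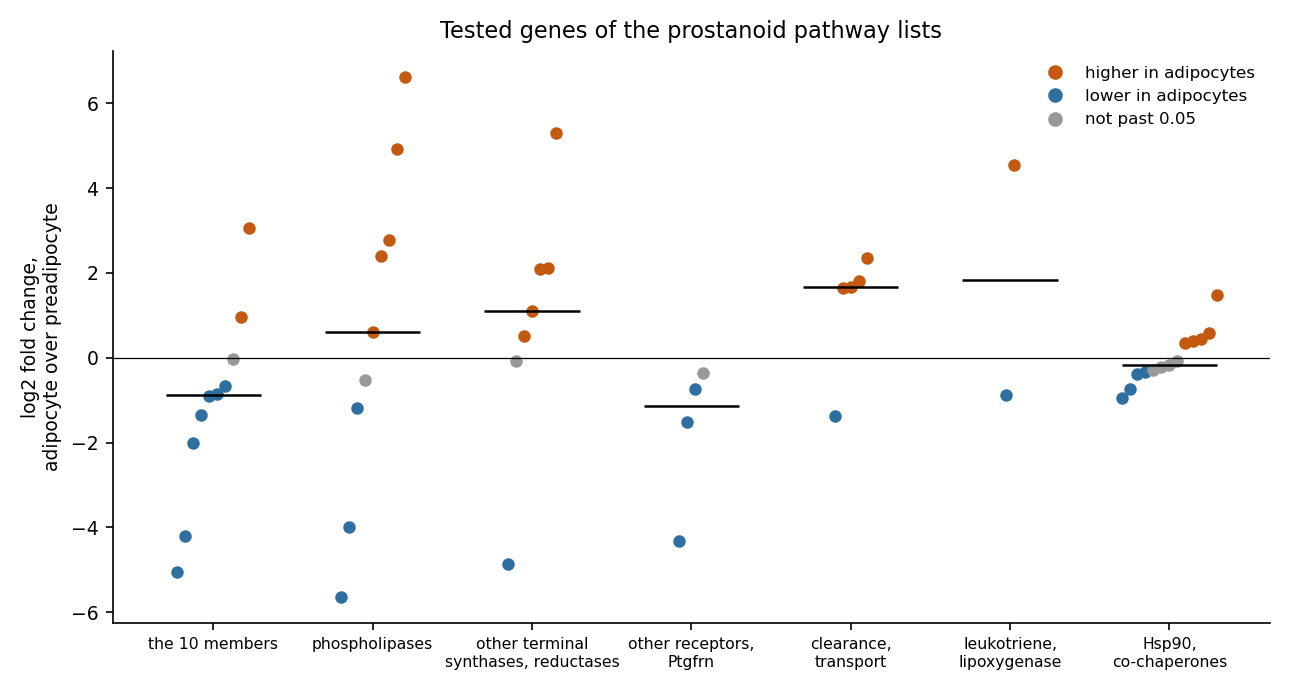
Log2 fold change, adipocyte over preadipocyte, of each tested gene among the 10 genes and 6 lists of related genes; orange points were higher and blue points lower at an adjusted p of 0.05, grey points did not pass, and bars are medians. The medians are -0.87 for the 10 genes and -1.13 for the other receptors together with Ptgfrn, against 0.62 for the phospholipases, 1.10 for the other terminal synthases and 1.66 for clearance and transport.

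Ordered by level, the 10 transcripts in adipocytes ran Ptges, Ptges2, Ptges3, Ptgis, Ptgfr, Ptgs1, Ptgr1, Ptgs2, Ptgir and Ptger4, from 168.3 to 0.130 TPM. In preadipocytes the order was Ptges, Ptgs1, Ptges3, Ptgis, Ptgfr, Ptges2, Ptger4, Ptgr1, Ptgir and Ptgs2, from 118.6 to 1.01 TPM. Neighbours whose ranges overlapped were Ptges with Ptges2 and Ptgs2 with Ptgir in adipocytes, and Ptgis with Ptgfr and Ptgir with Ptgs2 in preadipocytes. Ptges led both orders and Ptges3, Ptgis and Ptgfr kept their sequence, while Ptgs1 stood 6th in adipocytes and 2nd in preadipocytes, and Ptges2 stood 2nd in adipocytes and 6th in preadipocytes.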

How the data were processed

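RNA of 3 adipocyte and 3 preadipocyte libraries was isolated with phenol-chloroform and prepared by a standard Illumina method, per the labels. Per the submitters' processing notes, the tools were Bowtie, Bowtie2, RSEM and DESeq2 and the builds GRCm38 and mm10, while their versions and roles, and the strandedness, were not given in the sources used here. Per the file headers, the authors deposited expected counts, effective lengths and TPM for each gene and library. The deposited expected counts are estimates that divide reads shared by several genes, and the TPM values that the authors deposited are per length and sum alike in each library. FPKM was not used here.

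Identifiers without version were matched to GENCODE M21 on GRCm38 (54723 of 54752). Total expected counts were 22496486 to 26314076 per library. Expected counts were rounded to whole numbers and tested with the quasi-likelihood F-test of edgeR 4.0.16 (R 4.3.3) after filterByExpr and TMM scaling, modelling group alone, with a Benjamini-Hochberg threshold of 0.05. TMM factors were 0.88 to 0.90 in adipocyte and 1.11 to 1.13 in preadipocyte libraries. CPM uses TMM-scaled library sizes. Standard errors are the log2 fold change divided by the square root of F. The procedure was also run on simulated data in which only a small part of the genes changed, in both directions. Most tested genes were called in the real data, so that run does not bear on the choice of scaling.

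No libraries were duplicates (chi-square per degree of freedom at least 2.97 for each pair). Libraries with the same number deviated together (correlations 0.70, 0.34 and 0.29), so the numbers may pair the samples, although no label states it. The main fit models group alone and leaves such a pairing out, while the replicate block takes it in. Alternatives were a replicate block, DESeq2 1.42.0, limma 3.58.1 (voom, and log2 TPM with pseudocounts of 1 and 0.1), RLE, upper-quartile and total-count scaling, no filter, a filter at 10 CPM in 3 libraries, each library left out, and added reads of copies or antisense genes. The last of these, and the left-out libraries and other unit for the share of Ptgfr, were chosen after seeing the data. Counting intervals and the floor of 3 counts cover counting error only.

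The 10 genes and the gene lists were chosen with earlier results of these data known. Named are the 10 genes, list genes past the threshold with a log2 fold change of at least 1 in size and at least 1 CPM in the higher group, each receptor, the 2 genes nearest to each cyclooxygenase, 5 label checks and, for each further cell type, its leading marker. Other list genes named beside counts, such as Slco2a1 and those of the Hsp90 list, were chosen after their values were seen.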

Additional observations from a re-analysis of the deposited data

How the results depend on the processing

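Many of the 36 named genes were named for a large called change in these same data, so keeping their call was likely from the outset. Across 17 alternative fits, 593 fold changes of the 36 genes kept their direction and call, 5 became significant and 6 changed sign. The 6 were all of Ptges3, which passed in none of them. It had 0.0362 with DESeq2, 0.0362 with RLE factors and 0.0433 with no low-count filter. With a library left out, it had 0.0541 without adipocyte library 1, 0.0041 without adipocyte library 2 and 0.0255 without preadipocyte library 2. The other left-out fits of Ptges3 stayed negative, down to -0.0703. The 5 were Ptges3 on total counts (-0.35), log2(TPM + 0.1) (-0.50) and log2(TPM + 1) (-0.50), and Ptger3 on log2(TPM + 0.1) (-0.78) and log2(TPM + 1) (-0.21). With the replicate block, the 10 genes again gave 2 higher and 7 lower, and the block changed no call among the 36 genes, while the Hsp90 list gave 6 lower. On log2(TPM + 1), which compresses low levels, the fold moved by over 1.5 times for 15 of the 36, to a log2 fold change of 1.23 for Hpgds, 2.57 for Pla2g2e, -2.72 for Tbxa2r and -0.70 for Ptgir. Calls over all genes ran from 7689 to 11975 over the alternatives.

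The filter at 10 CPM in 3 libraries left 4 of the 10 genes lower, since Ptgs2, Ptgr1 and Ptgir were no longer tested, and likewise 1 gene of the other receptor list (Ptgfrn) and 0 clearance or transport genes lower. Lower calls among the other terminal synthases were 2 on total counts and on both TPM scales. Of the Hsp90 list, 2 were higher and 8 lower on total counts, and 1 higher and 9 lower on both TPM scales. With each library left out in turn, 2 to 5 of the Hsp90 list and 1 to 2 of the leukotriene list were lower, the low Hsp90 count without adipocyte library 2, and 2 of the leukotriene list also with no low-count filter. With each library left out, the difference in the Ptgs2 share ran from 7.74 to 9.61 percentage points, that in the Ptges share from -8.86 to -5.85, that in the Ptgfr share from 8.03 to 10.4 and that in the Ptgis to Ptges log2 ratio from -1.71 to -1.65. Low counts limit Ptgir, Ptger3 and Ptger4 in adipocytes, at 5 to 25 counts per library.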

Other observations

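The sister route from arachidonic acid, to leukotrienes and other lipoxygenase products, was represented by few transcripts. Of 13 listed genes, 2 were tested, and Alox12b, Ltb4r2, Cysltr1 and Cysltr2 had 0 counts in all 6 libraries. Alox5, the enzyme that starts leukotriene synthesis, had 0 counts in adipocytes and 3 in preadipocytes. Ltc4s, the leukotriene C synthase, nevertheless had 113.3, 95.3 and 99.7 TPM in adipocytes, against 6.51, 5.32 and 6.95 TPM in preadipocytes, a log2 fold change of 4.53 (SE 0.15; edgeR adjusted p = 1.71e-08). Lta4h, which makes leukotriene B, had 26.4 ± 1.44 TPM in adipocytes and 74.9 ± 1.67 TPM in preadipocytes (SD, n = 3 each), a log2 fold change of -0.87 (SE 0.077; edgeR adjusted p = 8.45e-06); it was chosen after its values were seen.

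Smooth muscle markers summed to 59.5 to 67.4 TPM in adipocytes and 197.1 to 235.5 TPM in preadipocytes. Of the 5 tested, Acta2, Tagln and Lmod1 were lower and Myh11 and Des higher. Acta2, the most abundant of the list, had 4.15 ± 0.898 TPM in adipocytes and 202.3 ± 20.6 TPM in preadipocytes, a log2 fold change of -5.08. Des had 51.7 ± 3.40 TPM in adipocytes and 1.63 ± 0.297 TPM in preadipocytes (SD, n = 3 each), a log2 fold change of 5.45. Endothelial markers summed to 0.140 to 0.310 TPM in adipocytes and 0.390 to 0.680 TPM in preadipocytes, led by Pecam1, with Tie1 at 0 counts. Epithelial markers summed to 0.5 to 1.37 TPM in adipocytes and 0.290 to 0.570 TPM in preadipocytes, led by Krt18. Their part in the values of the prostaglandin genes was not tested.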
